A study of Mus musculus with 8 samples.

Results

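Matrix fibroblasts of mouse colon tumours were chosen by measured transcript counts, as the wells in which Dpt, Lum, Sfrp4 and Htra3 together reached at least the summed count of Tagln, Acta2, Tnc and Col8a1. A well also needed at least 2000 transcripts without mitochondrial and spike-in rows, at least 100 collagen transcripts (Col1a1, Col1a2 and Col3a1) per 10000, under 2 transcripts of Epcam, under 2 of Ptprc (the CD45 gene) and under 3 of the mesothelial genes Msln and Upk3b together. Of 3072 wells on 8 plates, 1376 reached the depth and 79 met the whole rule. The 88 wells that met every condition but had more Tagln, Acta2, Tnc and Col8a1 are called contractile wells. Because measured values chose the wells, the 15 genes of the rule are described below without a test.

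The tumours grew from engineered colon tumour organoids grafted beneath the outer muscle layer of the cecum. All hosts received tamoxifen in the diet. FibΔZeb1 mice carried floxed Zeb1 with a tamoxifen-inducible Cre driven by a type I collagen promoter, named Col1a1 in the sample labels and Col1a2 in the methods of the study, and FibCtrl mice were littermates without Cre. Each plate held sorted cells of 1 mouse, with 4 plates per genotype. Male and female hosts were used, and their age was not given. The sort collected Epcam-positive cells, CD45-positive cells and cells negative for Epcam, CD45 and CD31 on the same plate, so the number of wells per class was partly set by the gates. Classes here follow transcripts and not the recorded gates.

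Dermatopontin (Dpt), lumican (Lum) and decorin (Dcn) are secreted proteins that bind collagen fibrils and set how the fibrils pack. Sfrp4 is a secreted antagonist of Wnt signalling and Htra3 is a secreted serine protease. In the intestine, fibroblasts with this secretory programme lie in the submucosa and around vessels, where a Pi16 and Cd34 positive adventitial group is known, while smooth muscle actin (Acta2) and transgelin (Tagln) mark contractile fibroblasts. ZEB1 is a transcription factor of the epithelial to mesenchymal transition that binds E-boxes in DNA and is best known as a repressor.

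The matrix wells were spread unevenly over the plates. FibCtrl plates 1 to 4 held 24, 1, 1 and 23 of them, and FibΔZeb1 plates 1 to 4 held 2, 4, 8 and 16. The wells held between 2109 and 157150 transcripts with a median of 20105. The deepest well, on FibΔZeb1 plate 3, carried 35.1% of the matrix transcripts of its plate, and the next deepest well of all held 64465. Genotypes were compared on the plates with at least 5 matrix wells, which were FibCtrl 1 and 4 and FibΔZeb1 3 and 4, with 500408, 598895, 447639 and 251381 matrix transcripts. On these 4 plates Xist was counted in host cells and Y-linked genes were at 0, while on the other 4 plates Y-linked counts were above Xist, so all compared hosts were female by transcript. No matrix well shared its 50 highest rows and values with another. Median mitochondrial shares of the compared plates were 5.68% and 8.04% in FibCtrl and 8.49% and 11.5% in FibΔZeb1, and their part in the results was not tested.

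The markers of the class were present in most but not all wells. Decorin, which the rule did not use, was counted in 79 of 79 matrix wells with a median of 224 transcripts, against 83 of 88 contractile wells with a median of 9.51. Decorin was also counted in 64.4% of 405 epithelial wells, so a single transcript of it does not mark a fibroblast. Of the rule genes, Dpt was counted in 63 matrix wells, Lum in 71, Sfrp4 in 59 and Htra3 in 76. Ptx3, a secreted pattern recognition protein outside the rule, was counted in 36 of the 79 wells against 12 of the 88 contractile wells. At least 3 of the 6 markers were counted in 76 wells, and all 6 in 34.

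Most wells lay far from the edge of the rule. The Dpt, Lum, Sfrp4 and Htra3 sum was at least 10 times the other sum in 52 matrix wells, and 7 wells had less than 2 times. Just inside the edge stood 3 FibCtrl plate 1 wells with sums of 2 against 2, 2 against 2 and 12.02 against 12, and a FibΔZeb1 plate 2 well with 0 against 0. Just outside stood contractile wells of FibCtrl plate 1 with 122.15 against 127.87 and with 137.99 against 153.98.

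**Figure D1:**
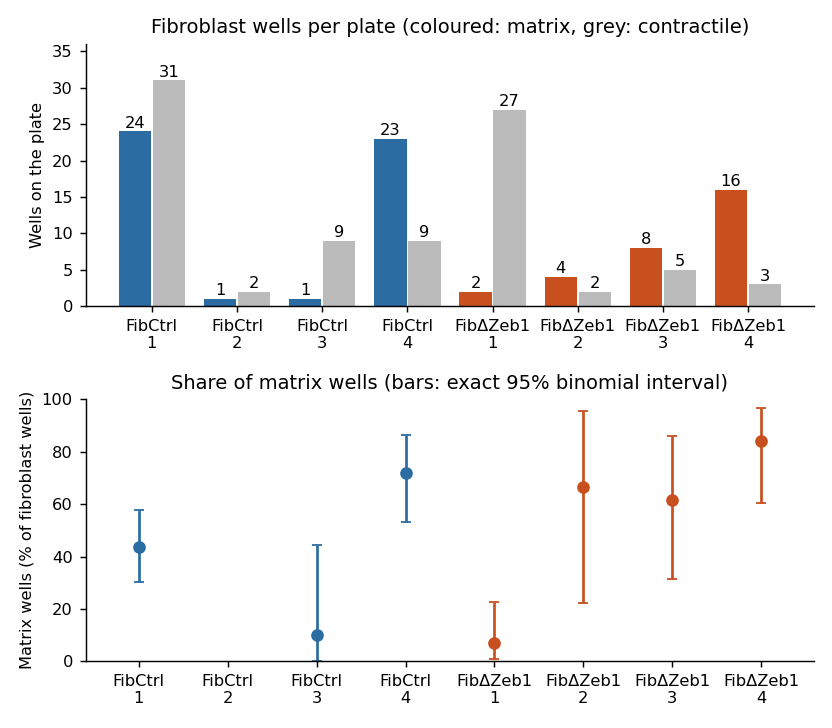
Upper panel: number of matrix wells (coloured, blue FibCtrl and orange FibΔZeb1) and contractile wells (grey) on each of the 8 plates. Lower panel: matrix wells as a percentage of all fibroblast wells on the 7 plates with at least 5 such wells, with exact 95% binomial intervals that cover counting error only. The shares run from 6.90% to 84.2% among FibΔZeb1 plates and from 10.0% to 71.9% among FibCtrl plates.

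Whether the genotype changed the balance between matrix and contractile fibroblasts was asked on plates with at least 5 fibroblast wells. Matrix wells were 24 of 55 (43.6%), 1 of 10 and 23 of 32 (71.9%) on FibCtrl plates 1, 3 and 4. They were 2 of 29 (6.90%), 4 of 6 (66.7%), 8 of 13 (61.5%) and 16 of 19 (84.2%) on FibΔZeb1 plates 1 to 4. The genotypes overlapped widely, with means of 41.8% ± 31.0 (SD, n = 3) and 54.8% ± 33.4 (SD, n = 4). The difference of 13.0 percentage points gave p = 0.6 in a two-sided exact permutation test over 35 arrangements, whose smallest p is 0.0286, and 0.6 after Benjamini-Hochberg adjustment over 2 such tests. Within the first flow cell (replicates 1 and 2) the difference was -6.85 points with 1 FibCtrl plate, and within the second it was 31.9 points.

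Set beside the contractile wells of the same plate, the matrix wells carried genes of adventitial fibroblasts and of complement that the rule did not use. This description rests on the 3 plates with at least 5 wells of both classes (FibCtrl 1 and 4, FibΔZeb1 3), uses within-plate log2 ratios of CPM (transcripts of a gene per 1000000 transcripts of the class on the plate) with 0.5 counts added, and has no test, since the wells were split by their own transcripts. Among 3896 genes with a mean of at least 50 CPM in either class, 62 (1.59%) were at least 4-fold higher in matrix wells on every plate and 33 (0.847%) at least 4-fold lower. The median over all these genes was -0.06 on the log2 scale. The contractile wells numbered 31, 9 and 5 on these plates. In them, 1 transcript was 12.6 CPM on FibCtrl plate 4, and 2 transcripts were 27.5 CPM on FibΔZeb1 plate 3. Ratios of genes at 0 in a class therefore depend on the added counts, and so does their order.

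The gene furthest towards the matrix wells was Dmkn, which encodes the secreted protein dermokine, with 262, 369 and 51.4 CPM in matrix wells against 2.83, 0 and 0 CPM in contractile wells. Cd55, which protects cells from complement, stood at 490, 618 and 395 CPM against 2.83, 50.2 and 0. The adhesion molecule Chl1 had 75.9, 346 and 360 CPM against 0 on all 3 plates. The other leading genes, with median log2 ratios from 5.23 to 5.72, were Tmem100, Sbsn, Nov (a matricellular protein of the CCN family), Clec3b (tetranectin), Ly6c1, Figf (vascular endothelial growth factor D) and Tnxb (tenascin X). All 10 were higher in matrix wells on each of the 3 plates, which the naming rule required. Ly6c1 has a close copy, Ly6c2, and reads may be split between them.

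On the contractile side the osteopontin gene Spp1 led, with 48.0, 13.4 and 35.7 CPM in matrix wells against 1290, 2952 and 6769 CPM in contractile wells. The Notch receptors Notch3 and Notch1 and the Notch target Heyl were among the 10 leading genes, with median log2 ratios of -4.94, -4.79 and -4.50. The pericyte and smooth muscle adhesion molecule Mcam was at 40.0, 0 and 0 CPM in matrix wells against 371, 62.8 and 248 CPM. Megf10, Megf11, Ltbp2 and Meox1 lay between -6.37 and -5.72. Megf10 and Megf11 had no transcript in the matrix wells of these plates, so their ratios depend on the added counts.

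By gene list, 13 of 15 adventitial genes above 50 CPM were higher in matrix wells on every plate, with a median log2 ratio of 3.39. For 9 complement genes the median was 3.18, and 6 were higher on every plate. Complement component C3 had 5877, 1145 and 2381 CPM in matrix wells against 578, 50.2 and 13.8 CPM. Glycolysis and hypoxia genes lay the other way, with 14 of 19 lower on every plate and a median of -0.70. Over all 3896 genes, 762 were higher and 760 lower on every plate. Collagen chains outside the rule had a median of -0.69, with 1 of 17 higher and 6 lower on every plate, so the matrix wells were not richer in every collagen.

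**Figure D2:**
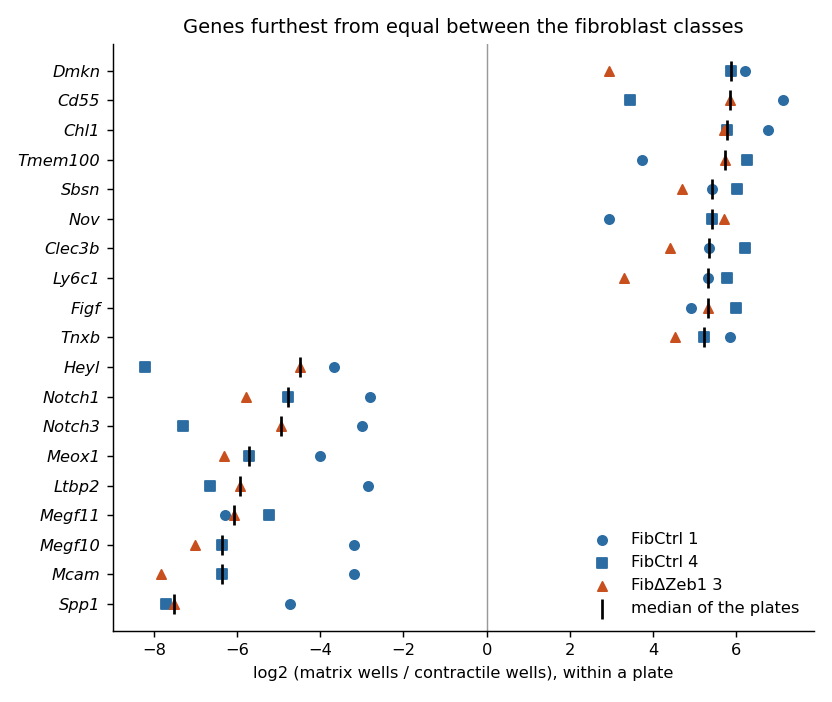
Log2 ratio of CPM in matrix wells over contractile wells of the same plate (x axis) for 10 genes furthest towards matrix wells and 9 furthest towards contractile wells (y axis), with points for FibCtrl plates 1 and 4 and FibΔZeb1 plate 3 and a black tick at their median. The medians run from 5.23 to 5.88 on the matrix side and from -7.52 to -4.50 on the contractile side.

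Zeb1 (chr18:5591860-5775467, plus strand, GRCm38) was counted at 58 and 52 transcripts on FibCtrl plates 1 and 4, or 116 CPM (95% exact Poisson interval 88.0 to 150) and 86.8 CPM (64.8 to 114). On FibΔZeb1 plates 3 and 4 it had 24 and 7 transcripts, or 53.6 CPM (34.4 to 79.8) and 27.8 CPM (11.2 to 57.4). The FibΔZeb1 plates were both below the FibCtrl plates, yet Zeb1 was not absent. The assay counts 3′ ends, and which exons the allele removes was not used here, so the count is only a partial check of the labels. The means were 101 ± 20.6 CPM and 40.7 ± 18.2 CPM (SD, n = 2 each). The exact permutation test gave p = 0.333, the smallest value that 2 plates against 2 allow, and 0.6 after adjustment over both permutation tests. In edgeR's fit the log2 difference was -1.29 (SE 0.41) with an adjusted p of 0.483.

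The sparse plates did not all follow their label. FibΔZeb1 plate 1, with 2 matrix wells, had 10 Zeb1 transcripts (106 CPM, interval 50.6 to 194), and its interval spanned the values of both FibCtrl plates. FibΔZeb1 plate 2, with 4 wells, had 1 transcript (18.4 CPM). The single wells of FibCtrl plates 2 and 3 had 0, which still allows up to 80.3 and 138 CPM at 3 counts. With every plate included, the mean difference became 0.676 CPM, with p = 1 in the exact permutation test. In contractile wells the level ran from 13.8 to 65.1 CPM over 5 plates. In immune wells it ran from 0 to 49.0 CPM and in epithelial wells from 0.70 to 9.20 CPM over 8 plates each.

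Across the transcriptome, edgeR's quasi-likelihood test called 0 of 6610 genes at a Benjamini-Hochberg adjusted p under 0.05 (0%). At an unadjusted p under 0.05, 249 genes (3.77%) were higher in FibΔZeb1 and 248 (3.75%) lower. DESeq2 on the same counts called 42 genes (0.635%), 17 higher and 25 lower. The plates of the genotypes did not overlap for 1277 genes (19.3%) with both FibΔZeb1 plates above, and for 1141 genes (17.3%) with both below. The smallest adjusted p in edgeR was 0.0711. Of the compared plates FibCtrl 1 alone lay on the first flow cell, and with the flow cell as covariate, a fit in which that plate no longer informs the genotype difference, edgeR called 33 genes, 15 higher and 18 lower. In these sums, fewer wells expressing a gene and less of its RNA per well cannot be told apart. The genes named next are therefore those of smallest unadjusted p in each direction, none of which passed the main test. The sparse plates lay outside the fit, and values of theirs that run the other way are given for several genes.

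Among genes lower in FibΔZeb1 matrix wells, the proprotein convertase gene Pcsk6 (chr7:65861734-66050386) had 368 and 444 CPM on FibCtrl plates 1 and 4 against 51.4 and 27.8 CPM on FibΔZeb1 plates 3 and 4. Its log2 difference was -3.33 (SE 0.40, edgeR adjusted p = 0.0711, DESeq2 adjusted p = 4.28e-06). Efhd1, a mitochondrial calcium-binding protein gene (chr1:87264363-87310839), fitted at -3.33 (SE 0.41), with 192 and 169 CPM against 22.3 and 11.9. Both genes separated the genotypes on the 4 compared plates. FibΔZeb1 plate 1, with 2 wells, had 169 CPM of Efhd1 (16 transcripts), as high as FibCtrl plate 4, and 73.9 CPM of Pcsk6.

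Thbs4 (chr13:92751590-92794818), which encodes the matrix glycoprotein thrombospondin 4, had 340 and 142 CPM against 6.70 and 3.98 CPM, a log2 difference of -5.38 (SE 0.67, edgeR adjusted p = 0.0711). It was counted in 15 of 24 and 3 of 23 FibCtrl wells, and a single FibCtrl plate 4 well held 78.7% of its transcripts on that plate. The steroid dehydrogenase gene Akr1c18 (chr13:4132615-4150654) had 99.9 and 195 CPM in FibCtrl and 0 transcripts in 699020 on the FibΔZeb1 plates, which makes it at least 35.4-fold lower against a floor of 3 counts over the group. Akr1c18 belongs to a cluster of related genes among which reads can be split. The difference was not particular to matrix wells. Epithelial wells had 82.8 and 72.7 CPM of Akr1c18 on FibCtrl plates 1 and 4 against 2.17 and 3.50 on FibΔZeb1 plates 3 and 4. Immune wells of these plates had 45.3 and 16.4 CPM against 0 and 0. On the other plates epithelial wells had 0 and 1.45 CPM in FibCtrl and 14.3 and 1.42 in FibΔZeb1. The cause was not tested.

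Apod, a lipid carrier gene (chr16:31296192-31314808), had 302 and 160 CPM against 0 and 7.96 CPM. FibΔZeb1 plate 2, outside the fit, had 1105 CPM of Apod in its 4 wells, so the separation did not extend to it, and with that plate included the log2 difference was 0.18. Duoxa1 (chr2:122302191-122313730), the maturation factor of a dual oxidase, had 154 and 139 CPM against 26.8 and 23.9. Its partner Duox1 had 89.9 and 85.2 CPM against 13.4 and 7.96 and fitted at -2.97 (SE 0.45).

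Among genes higher in FibΔZeb1 matrix wells, Frzb (chr2:80411970-80447625), a secreted Frizzled-related Wnt antagonist, had 9.99 and 5.01 CPM in FibCtrl against 190 and 390 CPM in FibΔZeb1. Its log2 difference was 5.22 (SE 0.58, edgeR adjusted p = 0.0711, DESeq2 adjusted p = 2.94e-08). Most of it came from few cells, since 1 well held 83.4% of the Frzb transcripts of FibΔZeb1 plate 3 and another held 92.9% of those of plate 4. FibΔZeb1 plate 2 had 313 CPM and plate 1 had 10.6 CPM, and the single well of FibCtrl plate 2 had 134 CPM.

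Aldh1a2 (chr9:71215789-71296243), an enzyme that makes retinoic acid, was listed at 0 and 41.7 CPM in FibCtrl against 1238 and 748 CPM in FibΔZeb1, a log2 difference of 5.47 (SE 1.01, edgeR adjusted p = 0.163, DESeq2 adjusted p = 0.577). It was spread over more wells than Frzb, in 0 of 24 and 4 of 23 FibCtrl wells and in 7 of 8 and 9 of 16 FibΔZeb1 wells. FibΔZeb1 plate 2 had 1013 CPM and plate 1 had 42.2 CPM. Mesothelial marker genes summed to 122 and 200 CPM in FibCtrl and 208 and 509 CPM in FibΔZeb1, mostly Wt1 with 95.9, 174, 208 and 442 CPM, and their part in the Aldh1a2 values was not tested. Mesothelial cells are a known site of Aldh1a2.

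The cytochrome P450 gene Cyp1b1, which oxidises retinoids and oestrogens, had 71.9 and 88.5 CPM against 346 and 342, a log2 difference of 2.06 (SE 0.32). The sparse plates ran the other way for Cyp1b1, with 0 and 18.4 CPM on FibΔZeb1 plates 1 and 2 and 413 CPM (9 transcripts) in the single well of FibCtrl plate 3. The mitochondrial alanine transaminase gene Gpt2 had 0 and 3.34 CPM against 55.8 and 63.6, and Adcyap1r1, a neuropeptide receptor gene, 18 and 3.34 CPM against 194 and 83.5. Cenpf, which encodes a kinetochore protein of dividing cells, had 4.0 and 8.35 CPM against 159 and 43.8. FibΔZeb1 plates 1 and 2 had 0 and 18.4 CPM of Adcyap1r1 and no Cenpf transcript.

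**Figure D3:**
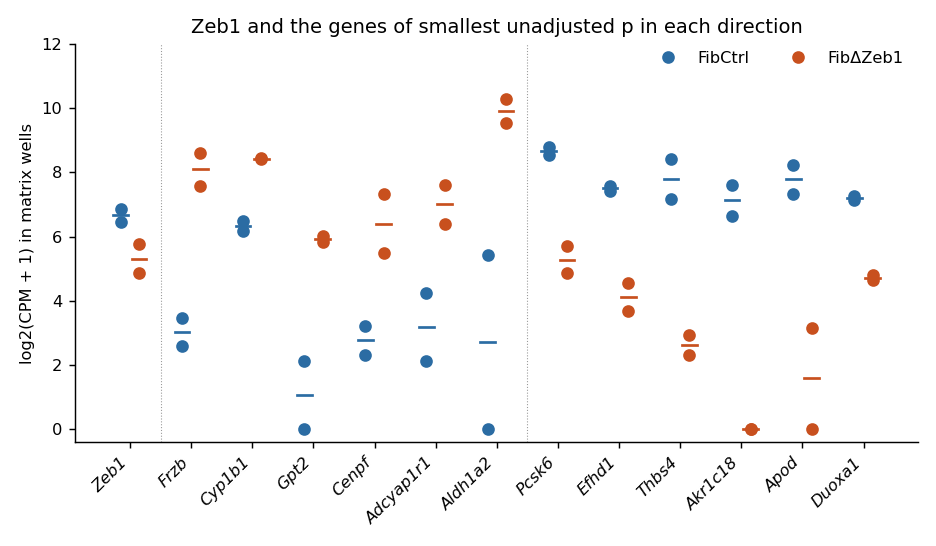
Level in matrix wells as log2(CPM + 1) (y axis) of Zeb1, the 6 genes of smallest unadjusted p higher in FibΔZeb1 and the 6 lower (x axis, in that order). Each point is a plate (blue FibCtrl 1 and 4, orange FibΔZeb1 3 and 4) and each bar the mean of 2. The plates of the genotypes do not overlap for any of these genes, which their choice favours, and none passed edgeR's adjusted threshold.

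Promoter sequences are shown for the 2 of these 12 genes whose window holds the E-box CAGGTG on either strand, the motif ZEB1 is known to bind. Windows are the 300 bases around each start site from RefSeq (GRCm38.p6), 12 of 12 genes matched, and capitals mark the motif. The first is Aldh1a2 at chr9:71215539-71215838 on the plus strand and the second Thbs4 at chr13:92794769-92795068 on the minus strand.
Aldh1a2: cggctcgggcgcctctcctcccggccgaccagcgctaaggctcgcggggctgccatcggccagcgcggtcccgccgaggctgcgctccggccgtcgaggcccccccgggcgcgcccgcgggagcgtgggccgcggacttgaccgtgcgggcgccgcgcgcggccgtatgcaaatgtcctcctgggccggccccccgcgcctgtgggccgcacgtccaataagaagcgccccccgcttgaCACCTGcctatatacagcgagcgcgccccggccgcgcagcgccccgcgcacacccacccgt
Thbs4: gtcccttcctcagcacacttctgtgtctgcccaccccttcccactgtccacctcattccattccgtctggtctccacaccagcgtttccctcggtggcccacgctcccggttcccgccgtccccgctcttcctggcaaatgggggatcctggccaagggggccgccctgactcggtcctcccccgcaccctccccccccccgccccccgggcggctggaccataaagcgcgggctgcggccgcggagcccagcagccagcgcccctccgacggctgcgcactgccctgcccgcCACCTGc
Each direction had 1 gene of 6 with the motif. Over all 32851 promoter windows of this length, none from the chromosome of Zeb1 among them, 20.2% held it. A match describes the letters only, and the other windows lack these letters in these 300 bases.

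Genes of known groups were then read together, each list by its counts beside all 6610 tested genes, whose median log2 difference was -0.01. Of all tested genes, 19.3% had both FibΔZeb1 plates above both FibCtrl plates and 17.3% had both below. At an unadjusted p under 0.05 in edgeR, 3.77% were higher and 3.75% lower. A list count near these shares says nothing particular to the list. None of the members passed edgeR's adjusted threshold. A gene entered the test if its counts were high enough in as few as 2 plates, so members seen in 1 genotype had to differ, and the counts below describe and support nothing more.

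In the adventitial list, 15 of 16 genes were tested, 12 had both FibΔZeb1 plates below both FibCtrl plates and none the reverse, 8 had an unadjusted p under 0.05, and the median log2 difference was -1.29. Pi16 (chr17:29317680-29330593), a secreted peptidase inhibitor gene that names this cell group, had 438 and 1139 CPM in FibCtrl against 80.4 and 39.8 CPM, a log2 difference of -3.70 (SE 0.58, edgeR adjusted p = 0.13, DESeq2 adjusted p = 1.27e-06). The stem and endothelial cell glycoprotein gene Cd34 had 1133 and 1142 CPM against 690 and 267. Gsn (gelsolin) had 6085 and 1170 CPM against 565 and 1042, and Igfbp5 3265 and 371 CPM against 257 and 51.7, so in both the FibCtrl plates differed severalfold between themselves. Ly6a, the Sca-1 gene, had 2182 and 3378 CPM against 1570 and 1392. FibΔZeb1 plate 1, outside the fit with 2 wells, had Cd34 at 1182 CPM (112 transcripts) and Ly6a at 2111 CPM (200 transcripts), near the FibCtrl levels, and Pi16 at 73.9 CPM. FibΔZeb1 plate 2 had 0 of Cd34 and Pi16 and 331 CPM of Ly6a.

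Immediate-early genes, which dissociation and stress are known to induce, had a median of -1.08 over 20 tested of 22, with 12 below and 0 above. Fos had 4938 and 2197 CPM against 1539 and 1444, a log2 difference of -1.29 (SE 0.49), Jun 2414 and 1352 against 550 and 1181, and Fosb 2410 and 1276 against 592 and 1090. FibCtrl plate 1 was the highest of the 4 compared plates for each of these. The part of handling in these and the other values was not tested.

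Of 14 complement genes 8 were tested, 3 had both FibΔZeb1 plates below, none had both above and the median was -0.68. C3 had 5877 and 1145 CPM against 2381 and 5880, and its log2 difference of 0.21 (SE 0.78) was within the spread between plates. Serping1, the C1 inhibitor gene, had 4910 and 5235 CPM against 1537 and 3990, and Cfb, complement factor B, 596 and 741 against 121 and 700. Of 26 inflammatory fibroblast genes 20 were tested, with 5 below, 1 above and a median of -0.25. The acute phase gene Saa3 had 1755 and 910 CPM against 0 and 3182, Cxcl1 1383 and 411 against 123 and 851, and the monocyte chemokine gene Ccl7 1053 and 765 against 293 and 521 with a log2 difference of -1.19 (SE 0.43). Ptx3 had 673 and 1513 CPM against 194 and 704, which overlap. On FibΔZeb1 plate 1 Cxcl1 stood at 1763 CPM and Ccl7 at 1921 CPM, above every compared plate.

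NF-kB response genes had 6 of 15 below, none above and a median of -0.42. The inhibitor Nfkbia had 1821 and 1237 CPM against 268 and 851, the hyaluronan-binding Tnfaip6 979 and 1159 against 422 and 676, and Ier3 612 and 955 against 154 and 724. FibΔZeb1 plate 1 had 2322 CPM of Tnfaip6 and 1615 CPM of Nfkbia.

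The rule genes themselves, given without a test, did not move as a group. Sfrp4 had 1219 and 1571 CPM in FibCtrl against 478 and 489 CPM in FibΔZeb1, and Htra3 had 2678 and 2707 against 1416 and 525. Dpt had 1908 and 1957 CPM against 970 and 1536, while Lum had 1759 and 1514 against 2216 and 2033. Dpt, Sfrp4 and Htra3 were thus lower on both FibΔZeb1 plates and Lum higher. FibΔZeb1 plate 1 had 2333 CPM of Dpt, 4022 of Lum, 1457 of Sfrp4 and 1203 of Htra3. Col1a1 had 10921 and 20857 CPM against 21459 and 20061, Col1a2 14954 and 21937 against 20570 and 22352, and Col3a1 19648 and 42348 against 26517 and 27003. The FibCtrl plates differed more between themselves than the FibΔZeb1 plates did in each of these 3 chains. Epcam, Ptprc, Msln and Upk3b, which the rule limits, stayed at or below 27.8 CPM on the 4 plates.

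Small leucine-rich proteoglycans had a median of -0.70 over 8 tested of 10, with 2 below and 0 above. Dcn had 18571 and 9753 CPM against 9443 and 11230, Bgn (biglycan) 2496 and 2055 against 2495 and 2868 and Ogn (osteoglycin) 977 and 302 against 467 and 390. Collagen chains outside the rule had a median of 0.73 over 15 tested of 19, with 8 above and 2 below and 5 at an unadjusted p under 0.05, all higher. Col6a2 had 2148 and 1246 CPM against 4142 and 2224, Col6a1 2146 and 1164 against 3708 and 1949, and Col5a2 1271 and 1959 against 2804 and 1273. The basement membrane chains Col4a1 and Col4a2 were among the 5, with 498 and 134 CPM against 2221 and 1349 for Col4a1. DESeq2 called 3 of 15 tested collagen genes, 3 of 15 adventitial genes and 3 of 6 proliferation genes, against 42 of all 6610 (0.635%). It called 2 each in the Wnt and inflammatory lists. The proteoglycan, immediate-early, metalloproteinase and retinoid lists had 1 each.

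Matrix glycoproteins had a median of -0.21 with 3 of 25 above and 7 below. Sparc had 12502 and 18886 CPM against 17119 and 19118, fibronectin (Fn1) 5184 and 9736 against 5770 and 5434, and fibrillin 1 (Fbn1) 2992 and 2675 against 3174 and 1858. Metalloproteinases, their inhibitors and processing enzymes had a median of -0.26, with 7 of 23 above and 8 below. Mmp2 had 1731 and 2917 CPM against 1191 and 1532, Timp2 2274 and 1196 against 465 and 1026, and Adamts2 845 and 833 against 909 and 1221. The lysyl hydroxylase gene Plod2, which was singled out after its values were seen, had 160 and 217 CPM against 719 and 545 with a log2 difference of 1.71 (SE 0.35).

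Contractile genes outside the rule had a median of 0.99 over 11 tested of 18, with 8 above and 0 below. Tpm1 had 226 and 224 CPM against 672 and 461, a log2 difference of 1.30 (SE 0.34). Cald1 had 446 and 376 CPM against 722 and 402 and Flna 314 and 339 against 433 and 374. Of the rule genes on the contractile side, Col8a1 had 120 and 157 CPM against 259 and 7.96, Acta2 had 278 and 56.8 CPM against 199 and 497, Tagln 46.0 and 38.4 against 26.8 and 163 and Tnc 18 and 15 against 127 and 549. Smooth muscle markers summed to 13.4 and 50.0 CPM in FibCtrl against 59.7 and 103 CPM in FibΔZeb1. Myofibroblast matrix genes had a median of -0.20 with 4 of 11 above and 2 below. Cilp had 929 and 604 CPM against 1171 and 55.7 and Cthrc1 236 and 563 against 445 and 267.

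Retinoid genes had 3 of 10 above and 4 below with a median of -0.25. Beside Aldh1a2, Rarres2 (chemerin) had 300 and 1391 against 87.1 and 211, a log2 difference of -2.54 (SE 0.75). Wnt ligands, R-spondins and antagonists had 4 of 8 tested above and 1 below, of 16 listed, with a median of 0.57. Wnt4 had 24.0 and 85.2 CPM against 391 and 450, a log2 difference of 2.89 (SE 0.54, edgeR adjusted p = 0.163, DESeq2 adjusted p = 0.000575), and was counted in 5 of 24 and 5 of 23 FibCtrl wells and 6 of 8 and 11 of 16 FibΔZeb1 wells. The sparse plates did not follow, with 31.7 and 110 CPM of Wnt4 on FibΔZeb1 plates 1 and 2 and 1071 CPM in the single well of FibCtrl plate 2. Sfrp2 had 1039 and 1444 CPM against 601 and 1384 and Sfrp1 480 and 680 against 55.8 and 919. BMP genes had 2 of 5 below and a median of -0.49, with Fstl1 at 5669 and 10740 CPM against 6025 and 4439.

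Transcription factors of the epithelial to mesenchymal transition gave 3 of 7 above and 3 below, with a median of 0.41. The 3 below were Twist1, Prrx1 and Zeb1 itself, the targeted gene. Twist1 had 192 and 165 CPM against 73.7 and 55.7, a log2 difference of -1.48 (SE 0.33), and Prrx1 344 and 294 against 179 and 183. Epithelial wells of the same plates carried more Twist1 than matrix wells, with 1053 and 266 CPM in FibCtrl and 161 and 374 in FibΔZeb1. The paralogue Zeb2 had 81.9 and 91.8 CPM against 154 and 127, a log2 difference of 0.67 (SE 0.31). Fibroblast transcription factors had a median of 0.05, with 3 of 16 above and 5 below. Creb3l1 had 340 and 381 CPM against 514 and 374 and Nfia 604 and 306 against 268 and 390.

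Receptors had a median of -0.34 with 4 of 19 above and 6 below. Pdgfra, a general fibroblast receptor gene, had 562 and 563 CPM against 655 and 609, and the TGF-beta receptor gene Tgfbr2 1443 and 1797 against 1345 and 509. IGF genes had a median of 0.18 with 3 of 6 above and 1 below, and Igfbp4 had 2636 and 4248 CPM against 4928 and 5529. MHC class I and class II lists had medians of -0.55 and -0.52, interferon genes -0.20 and glycolysis and hypoxia genes -0.03. B2m, the light chain of class I, had 2494 and 1414 CPM against 831 and 1790.

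Proliferation genes had the highest median, 3.10, but only 6 of 20 were tested. Mki67 had 18 and 10.0 CPM against 331 and 31.8, and the deepest well of the whole class held 87.8% of the Mki67 transcripts of FibΔZeb1 plate 3. Mki67 was counted in 7 of 24 and 3 of 23 FibCtrl wells and in 3 of 8 and 5 of 16 FibΔZeb1 wells. Top2a had 22.0 and 26.7 CPM against 393 and 3.98, which overlap. Pcna had 91.9 and 88.5 CPM against 89.4 and 87.5.

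**Figure D4:**
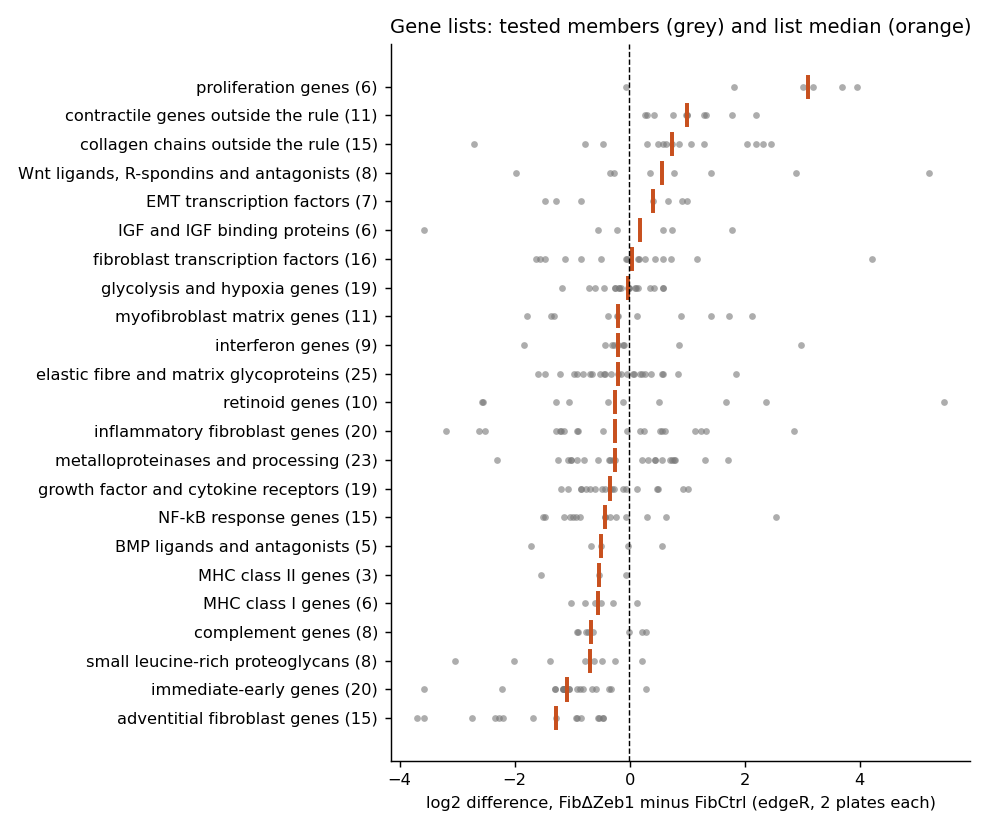
Log2 difference between FibΔZeb1 and FibCtrl matrix wells (x axis, edgeR, 2 plates each) for the tested members (grey points) of 23 gene lists (y axis, number tested in brackets). Orange ticks are list medians, from -1.29 for adventitial genes to 3.10 for proliferation genes, and the dashed line is the median of all tested genes.

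Epithelial and general immune markers were low in the matrix wells beside wells of their own class, and the other marker sets had no such class to compare with. Mesothelial markers, given above with Aldh1a2, summed to 122 and 200 CPM in FibCtrl and 208 and 509 CPM in FibΔZeb1. Epithelial markers summed to 114 and 174 CPM in FibCtrl and 58.1 and 183 CPM in FibΔZeb1, against 4194 to 9070 CPM in epithelial wells. General immune markers summed to 25.0 to 52.0 CPM over the 4 plates, against 3783 to 5177 CPM in immune wells. Pericyte markers summed to 289 and 342 CPM in FibCtrl against 43.8 and 46.9 CPM in FibΔZeb1. Endothelial markers summed to 58.4 and 85.9 against 13.4 and 23.9 CPM, with 2 of the 7, Cdh5 and Emcn, at 0 and the others counted. Lymphatic endothelial, glial, B cell and T cell markers each stayed at or below 35.8 CPM, interstitial cell of Cajal markers at or below 73.9, and macrophage and neutrophil markers at or below 103. The glial Sox10 and the adipocyte Plin1 and Cidec were at 0. The part of these cells in the genotype values was not tested.

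The matrix wells were not uniform within a plate. Levels per 10000 transcripts of C3 ran from 0 to 249.9 with a median of 56.2 on FibCtrl plate 1 and from 0.46 to 75.2 with a median of 8.04 on FibCtrl plate 4. Pi16 was counted in 12 of 24 and 21 of 23 FibCtrl wells and in 5 of 8 and 3 of 16 FibΔZeb1 wells. Levels of Pi16 and Cd34 went together across wells, with Spearman's rho of 0.75 and 0.63 on FibCtrl plates 1 and 4 (24 and 23 wells) and 0.20 on FibΔZeb1 plate 4 (16 wells). Cd34 and C3 had rho of -0.25, -0.41 and -0.12 on the same plates. These are descriptions within single libraries whose wells share depth effects.

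In FibCtrl, 33 of 47 wells held Pi16 and 4 held Aldh1a2, 3 of them with both. In FibΔZeb1, 8 of 24 wells held Pi16 and 16 held Aldh1a2, 6 of them with both, and 6 held neither. Wells with both genes were seen in each genotype.

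**Figure D5:**
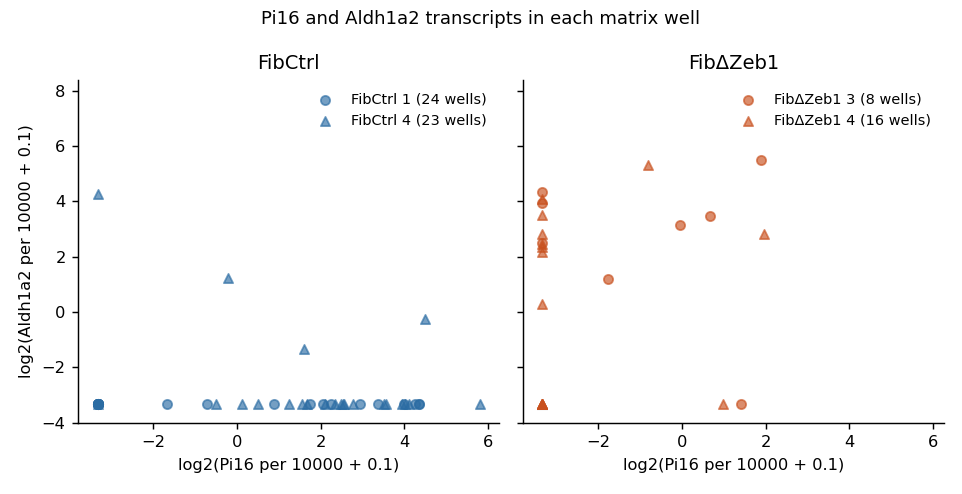
Pi16 (x axis) and Aldh1a2 (y axis) in single matrix wells as log2(transcripts per 10000 + 0.1), for FibCtrl (left, 47 wells) and FibΔZeb1 (right, 24 wells), with circles and triangles for the plates. Points on the left and lower edges hold no transcript of that gene, and Aldh1a2 is above 0 in 4 FibCtrl wells and 16 FibΔZeb1 wells.

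Because wells differed in depth, each was thinned to 2000 transcripts and the share with at least 1 transcript of 7 genes was taken. No well was too shallow. C3 was counted in 87.5% and 69.6% of thinned FibCtrl wells and 37.5% and 75.0% of thinned FibΔZeb1 wells. Aldh1a2 was counted in 0% and 8.70% against 87.5% and 43.8%, where 0 of 24 wells still allows a share of up to 12.5% at 3 wells. Thinned epithelial wells, taken for comparison, had between 0% and 13.5% for C3 and between 0% and 8.11% for Aldh1a2 over 8 plates. Whether these wells expressed the genes themselves or received stray transcripts was not tested. Median depths before thinning were 11042 to 46201 in matrix wells and 11584 to 37428 in epithelial wells.

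For Cd34 the thinned shares were 58.3% and 78.3% against 75.0% and 37.5%, for Pdgfra 54.2% and 52.2% against 62.5% and 68.8% and for Cxcl12 29.2% and 26.1% against 37.5% and 37.5%. All were above the epithelial range, whose highest values were 3.85%, 5.71% and 1.72%. Ly6c1, with 8.33% and 34.8% against 0% and 6.25%, lay within the epithelial range of 5.17% to 35.4% or under it, and H2-Aa, with 45.8% and 17.4% against 37.5% and 37.5%, within 8.33% to 81.1%, so neither share sets matrix wells apart from epithelial wells at this depth. Thinned contractile wells had Ly6c1 in 0% on FibCtrl plates 1, 3 and 4 and FibΔZeb1 plate 3 and in 3.70% on FibΔZeb1 plate 1, and H2-Aa in 0% to 88.9%. Unthinned, the Aldh1a2 shares were 0% and 17.4% against 87.5% and 56.2%.

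Whether the genotype difference was the same in contractile wells was tested with an interaction term on the plates with at least 5 wells of both classes, which left FibCtrl 1 and 4 against FibΔZeb1 3 alone. All of the spread in this fit comes from the 2 FibCtrl plates, and the lone FibΔZeb1 plate is assumed to vary like them, so the p-values hold only under that assumption. Of 8754 genes, edgeR called 79 (0.902%) at an adjusted p under 0.05, 56 with a more positive FibΔZeb1 difference in matrix wells and 23 with a more negative one. Aldh1a2 had 0 and 41.7 CPM in FibCtrl matrix wells against 1238 in FibΔZeb1, and 72.1 and 151 CPM in FibCtrl contractile wells against 179, a difference of differences of 5.51 on the log2 scale (SE 0.84, edgeR adjusted p = 1.94e-07). Plates outside this fit ran against a pattern limited to matrix wells. Contractile wells had 668 CPM of Aldh1a2 on FibΔZeb1 plate 1 (27 wells), whose 2 matrix wells had 42.2 CPM, and 433 CPM on FibCtrl plate 3 (9 wells). The metallothionein gene Mt1 had 971 and 3141 CPM against 221 in matrix wells, and 738 and 402 CPM against 1238 in contractile wells, a value of -4.25 (SE 0.78, adjusted p = 9.22e-05). With a single FibΔZeb1 plate, the plate and the genotype cannot be told apart. Without the deepest well 53 genes were called, 38 of them among the 79.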

How the data were processed

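Single cells of colon tumours from 8 mice were sequenced by SORT-seq, 1 mouse to a 384-well plate. The sequencing provider aligned reads with BWA to GRCm38 transcripts and counted them with its own script, as the methods of the paper state, and the submitters' processing notes also name Cell Ranger 2.1.1. The deposited values were estimated counts, that is unique molecular identifiers corrected by the authors for collisions, and 87.1% of values above 0 were whole. They were not scaled. Whether counting used strand was not stated. Mitochondrial and spike-in rows were left out.

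The members and gene lists were chosen with earlier results of these data known. Counts were summed per plate over matrix wells, rounded, and tested between FibΔZeb1 and FibCtrl with edgeR 4.0.16 (quasi-likelihood, TMM, its expression filter, R 4.3.3). Benjamini-Hochberg adjustment at 0.05 ran over all genes in the fit. The 15 genes of the rule were fitted too and left out of the counts of genes tested and called. DESeq2 1.42.0 and other settings were alternatives. DESeq2 gave no adjusted p for some genes, Gpt2 among them, and these count as tested and not called. CPM is the summed count scaled to 1000000 transcripts of the class on the plate. Named genes were Zeb1, the 6 of smallest unadjusted p in each direction, the 3 highest members of each list, the 10 furthest from equal between classes in each direction and up to 10 interaction genes. Genes outside this rule were chosen after their values were seen, among them Pi16, Plod2, Duox1, Ptx3 and Col4a1. The 23 lists and 15 marker sets came from general knowledge. Replicate plates of a genotype differed by more than sampling noise (chi-square per degree of freedom 8.86 and 6.46), so each counted as 1 sample. Whether the mice of a genotype shared a litter was not given. Intervals and floors cover counting error only, p-values the spread between plates. Scripts were tested on simulated data. Some named genes are not reported here. No doublet caller was run, since wells received sorted single cells, and the batch method and cell filters of the study were not repeated.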

Additional observations from a re-analysis of the deposited data

Results flagged for a closer look

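The interaction test of edgeR called 79 genes for a genotype difference that was unequal in matrix and contractile wells. FibΔZeb1 plate 3 was the only FibΔZeb1 plate and was assumed to vary like the 2 FibCtrl plates, which gave all of the spread. Beside Aldh1a2 (5.51) and Mt1 (-4.25), the genes of smallest adjusted p with a FibΔZeb1 difference more negative in matrix wells were Col10a1 (-13.41 on the log2 scale), Gda (-4.66) and Aldh1a3 (-7.38). Col10a1, a collagen of cartilage, had 88 and 0 transcripts in FibCtrl matrix wells and 0 in FibΔZeb1, against 26, 0 and 49 in contractile wells, so its fitted value depends on the prior count. Gda, which encodes guanine deaminase, had 346 and 636 CPM against 170 in matrix wells and 32.5 and 37.7 CPM against 316 in contractile wells.

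The other 5 were genes of dividing cells, with values of 12.03 for Anln, 5.84 for Mki67, 11.64 for Tpx2, 11.51 for Cks2 and 14.64 for Kif23. Anln, Tpx2, Cks2 and Kif23 had 0 transcripts in the 5 contractile wells of FibΔZeb1 plate 3, so their fitted values also depend on the prior count. Without the deepest matrix well, chosen after seeing the data, Mki67 and Kif23 were no longer called (adjusted p = 0.28 and 0.195). With plates of at least 3 wells, which adds FibΔZeb1 plate 4, Mt1 (adjusted p = 0.761) and Aldh1a3 (0.0734) were no longer called, and Aldh1a2 kept a value of 5.84.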

How the results depend on the processing

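The limits of the genotype comparison are 2 plates per genotype, between 8 and 24 wells on each, and 1 well with 35.1% of its plate's matrix transcripts.
The count of called genes was 0 in the main test. It was 42 with DESeq2, 310 without the filter on low counts (of 14547 genes), 33 with the flow cell as covariate and 22 with at least 10 wells per plate. It was 2 with at least 3 wells and, chosen after seeing the data, 1 with at least 2 wells. Leaving out 1 plate gave 22 to 159 calls, with the lone plate of a genotype assumed to vary like the pair. It stayed 0 under the other scaling, depth, mitochondrial, margin and collagen settings, with all plates, and without the deepest well. The causes were not tested. The DESeq2 genes kept their direction in 41 or 42 of those tested again for each left-out plate.
A replicate block could not be fitted on the main plates, which share replicate number 4 alone. With at least 2 wells per plate the replicate block gave 0 calls, against 1 without it. For the share of matrix wells, pairs with the same replicate number gave a mean difference of 9.04 points over 3 pairs (exact permutation p = 0.75), a fit chosen after seeing the data.
The Zeb1 difference of -60.6 CPM lay between -75.2 and -46.1 when 1 plate was left out, and turned to 0.676 with every plate included. After thinning it was -10.9 CPM. With 8 wells of 2000 transcripts on FibΔZeb1 plate 3, 1 transcript there is worth more CPM than that, so the thinned value says little. The share difference of 13.0 points was -2.93 without FibCtrl replicate 3 and lay between -2.93 and 29.0 over the left-out plates. The interaction gave 52 calls with at least 3 wells and 4 after thinning. The count of genes at least 4-fold apart between classes, 95, lay between 139 and 173 when 1 plate was left out, as fewer plates had to agree. Without thinning the differences of shares were 7.38 points for Pdgfra (12.5 thinned), 13.5 for Cxcl12 (9.87) and -10.1 for H2-Aa (5.89). For Cd34 the difference reversed, at 7.47 points without thinning and -12.0 thinned. For C3 it was -4.17 points without thinning and -22.3 thinned.
Among the named genes Apod turned to 0.18 with at least 3 wells and 0.43 with every plate, Wnt4 to -0.089 with every plate, and Tpm1 to -0.0044 after thinning. Dcn turned to 0.070 with the flow cell, and leaving out 1 plate gave -0.907 (without FibCtrl replicate 4) to 0.058 (without FibCtrl replicate 1). Ccl7 turned to 0.16 with at least 2 wells and the replicate block and 0.46 with every plate. C3 was 1.84 without FibCtrl replicate 1 and turned to -0.56 without FibCtrl replicate 4, -0.65 without FibΔZeb1 replicate 4, -0.34 with at least 3 wells, -0.68 with at least 2, -0.71 with the replicate block at that minimum and -0.35 with every plate. Wells with no Epcam, Ptprc, Msln or Upk3b transcript left too few for the gene test, and the interaction could not be fitted with a plate left out, so both were not run.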

Other observations

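FibCtrl plates 2 and 3 held 1 matrix well each and lay outside the main gene test. The well of FibCtrl plate 2 had 22762 CPM of Igfbp5, 1071 CPM of Wnt4, 482 CPM of Agt (angiotensinogen), 455 CPM of the gut mesenchyme transcription factor gene Nkx2-3 and 0 of Lum and Sfrp4. On FibCtrl plates 1 and 4, Agt was at 0 and Nkx2-3 at 2.00 and 1.67 CPM, and on FibΔZeb1 plates 3 and 4 Agt was at 64.8 and 636 CPM and Nkx2-3 at 49.1 and 27.8 CPM. Agt was counted in 2 of 8 and 2 of 16 wells of these plates, and 1 well held 96.6% of its transcripts on plate 3 and another 85.6% on plate 4. The well of FibCtrl plate 3 had 5921 CPM of Saa3, 2249 CPM of the transcription factor gene Osr1 and 0 of Dpt.

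The 4 plates whose host cells had Xist and no Y-linked transcript held 71 of the 79 matrix wells, in 119 fibroblast wells. The 4 plates whose host cells had more Y-linked than Xist transcripts held 8, in 48 fibroblast wells, and between 6.90% and 66.7% of the fibroblast wells of each were matrix wells. Each genotype had 2 plates of each kind. The Xist and Y-linked counts were taken from fibroblast and immune wells.

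Cxcl13, a B cell chemokine gene, was counted in 3 of 16 wells of FibΔZeb1 plate 4 and in no matrix well of the other 3 compared plates, and 1 well held 98.2% of its transcripts.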
